A study of Mus musculus with 2 samples.

Results

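Transforming growth factor-β (TGF-β) is made, stored and sensed by different cells of the liver, and 10 genes of this system were described here across the cell types of a normal and a fibrotic mouse liver. They encode the 3 ligands (Tgfb1, Tgfb2 and Tgfb3), the type I receptor (Tgfbr1), the type II receptor (Tgfbr2), the co-receptor betaglycan (Tgfbr3) and the 4 latent TGF-β binding proteins (Ltbp1, Ltbp2, Ltbp3 and Ltbp4). The genes were chosen by name as members of this system and not by a measured value, though with earlier results of these data known. All 10 of the 10 had a row in both tables, among 20468 genes listed for the normal and 20473 for the fibrosis library.

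Non-parenchymal cells (NPCs) of C57BL/6 male mice aged 8 weeks were profiled by droplet scRNA-seq with 10x Chromium version 3 chemistry, which reads the 3′ end of a transcript and counts unique molecular identifiers (UMIs). The normal library, whose status is given as quiescent state, came from 1 mouse injected intraperitoneally with olive oil, and the fibrosis library (CCl4-mediated liver fibrosis) from 1 mouse injected with CCl4, which injures the hepatocytes around the central vein. Injections were given 2 times a week for 6 weeks, and cells were taken 48 h after the last. Most hepatocytes were removed by low-speed centrifugation, so hepatocyte-like cells in these libraries are those left behind. With 1 mouse and 1 library per condition, a difference between conditions is a difference between 2 mice, it has no replicate check, and no test or p-value is given.

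TGF-β is secreted in a latent form, in which its propeptide stays folded around the growth factor, and the propeptide is bound through disulfide bonds to a latent TGF-β binding protein that anchors the complex to fibrillin and fibronectin fibres of the matrix. Integrins, proteases and matrix proteins such as thrombospondin free the ligand, which binds the type II receptor, and this recruits and phosphorylates the type I receptor, so that SMAD2 and SMAD3 pass the signal to the nucleus. In the liver TGF-β is best known for driving stellate cells to become matrix-producing myofibroblasts. LTBP1, LTBP3 and LTBP4 carry latent TGF-β, whereas LTBP2 does not bind it and is known as a partner of fibrillin.

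The sequences shown are the stretches just before the gene start of Ltbp2 and Tgfb2, because these members had the highest ratios of the fibrosis over the normal library in stellate-named cells, 11.2 and 7.33. Both come from the RefSeq promoter table of build GRCm38.p6, in which 8 of the 10 genes had an entry (none for Tgfb3 or Tgfbr3). Both lie on the minus strand, run 5′ to 3′ and stop at the base before the annotated gene start. The Ltbp2 stretch is chr12:84876533-84876741 and the Tgfb2 stretch chr1:186705990-186706239, and capitals mark the motif matches given below them.
Ltbp2: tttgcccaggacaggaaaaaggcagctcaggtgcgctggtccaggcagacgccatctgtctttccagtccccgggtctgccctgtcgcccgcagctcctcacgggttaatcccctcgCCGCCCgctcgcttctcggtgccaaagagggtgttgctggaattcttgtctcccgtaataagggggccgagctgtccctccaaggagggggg
Tgfb2: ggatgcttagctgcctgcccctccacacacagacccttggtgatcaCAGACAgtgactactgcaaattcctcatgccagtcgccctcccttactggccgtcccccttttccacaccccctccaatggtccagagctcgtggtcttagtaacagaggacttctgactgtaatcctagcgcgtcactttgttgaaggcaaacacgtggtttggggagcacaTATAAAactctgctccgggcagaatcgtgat

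Both strands of these stretches were searched for the CAGA box bound by SMAD3 and SMAD4 (CAGACA), an AP-1 site (TGAGTCA), a TEAD site (GGAATG), a GC box (GGGCGG) and a TATA box (TATAAA), none of which overlapped another in the matches found. The 209 bases of Ltbp2 held a GC box, from 92 to 87 bases before the end printed, as did 26.5% of 32851 promoters over the same length. None of the other 4 motifs was in this window. Of promoters, 14.8% held the CAGA box, 3.80% the AP-1 site, 11% the TEAD site and 9.51% the TATA box. The shares set beside Ltbp2 are over the first 209 of the 250 bases before each start, without the bases nearest it. The 250 bases of Tgfb2 held a CAGA box from 204 to 199 bases before the end, a motif found in 17.1% of promoters, and a TATA box from 31 to 26 bases before it, found in 12.4%. The AP-1 site (4.46% of promoters), the TEAD site (12.6%) and the GC box (32.7%) were not in the Tgfb2 window. A match describes letters and not a bound site.

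In the mm10 assembly (GRCm38, GENCODE annotation) the ligand genes lie at chr7:25687002-25705077 on the plus strand (Tgfb1), chr1:186622792-186705989 on the minus strand (Tgfb2) and chr12:86056745-86079041 on the minus strand (Tgfb3). The receptor genes lie at chr4:47353222-47414931 (Tgfbr1, plus strand), chr9:116084293-116175360 (Tgfbr2, minus strand) and chr5:107106570-107289629 (Tgfbr3, minus strand). The binding protein genes lie at chr17:75005568-75392512 (Ltbp1, plus strand), chr12:84783212-84876532 (Ltbp2, minus strand), chr19:5740904-5758532 (Ltbp3, plus strand) and chr7:27305136-27337692 (Ltbp4, minus strand). Tgfb3 overlaps Ttll5 on the other strand, Ltbp2 overlaps the antisense gene D030025P21Rik, and Ltbp1 overlaps the pseudogene Gm6276. Whether the counting used strand is not given in the sources used here, so UMIs of these members could include some of the overlapping gene.

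The normal library held 8130 cells and 44062632 UMIs (898 to 75847 a cell, median 4144.5), and the fibrosis library 6437 cells and 53288463 UMIs (815 to 116430, median 5619). After cells with 10% or more mitochondrial UMIs were left out, 7471 normal and 6132 fibrosis cells remained. Cell classes were rebuilt by clustering each library without the 10 genes and were named from marker lists. Such a name, written as "-like", states the markers of a cluster and no more. The normal library had 17 named classes and the fibrosis library 15, 13 of which were named in both. A level is the gene's UMIs per 10000 UMIs of a class, with an exact Poisson 95% interval for counting error only, and a ratio is the fibrosis level over the normal one. A gene was called higher or lower in a class where the ratio was at least 2 times up or down with an interval that left out 1 and at least 20 UMIs over both libraries.

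Several facts of the libraries touch the values below. Of the cell barcodes, 15 occur in both libraries. The study's methods name an exclusion of doublets by Scrublet; run here on the deposited cells it marked 3 normal and 0 fibrosis cells, and none were removed. Whether doublets remain was not tested. T-cell-like and B-cell-like cells served as a reference for free RNA in droplets, and for Tgfb2, Tgfb3, Tgfbr3 and the binding proteins a level at or below theirs was not read as expression. In the fibrosis library they held 3608 and 2396 UMIs a cell on average, against 8314 in endothelial-like cells. The same free RNA in a droplet would weigh more in them per 10000. A level below theirs in deeper cells thus does not show a lack of expression. Lymphocytes make Tgfb1, Tgfbr1 and Tgfbr2 themselves, so for these genes they are no such reference. Of the 958 normal T-cell-like cells, clusters of 467 and 465 cells had as many NK as T markers among their leading genes, and the latter was led by Cd160, Xcl1, Cxcr6 and Klrb1c. Mesenchymal classes mixed types in both libraries. The fibrosis stellate-like class of 485 cells held 258 cells of stellate-named sub-clusters, 62 of portal-fibroblast-named ones and 165 of unnamed ones, and the mesothelial-like class of 80 cells held 30 portal-fibroblast-named cells. Each unnamed fibrosis sub-cluster had 16 stellate markers raised, and stayed unnamed because none was among its 10 leading genes. The stellate-named sub-clusters thus leave out cells with raised stellate markers. The normal stellate-like class of 163 cells held 23 unnamed cells led by immunoglobulin genes and 14 led by Mmrn1 and Ccl21a, genes known from lymphatic endothelium. These 14 cells alone held 17 of its 35 Tgfb2 UMIs and 105 of its Tgfbr2 UMIs, so class-wide stellate ratios are affected on both sides. Ratios are therefore also given for the sub-clusters by name, a grouping chosen after the clusters were seen: stellate (126 normal and 259 fibrosis cells), portal fibroblast (43 and 92) and mesothelial (45 and 48). The portal fibroblast name is weaker in the fibrosis library. Its sub-clusters of 62 and 30 cells each had 1 marker of that list among their 10 leading genes, with 8 and 9 raised. The normal sub-cluster had 4, with 12 raised, so these ratios may compare unlike cells. Of the stellate-named sub-clusters, 57 normal and 132 fibrosis cells also carried endothelial markers (summed level of 18 markers 161 and 173 per 10000, against 42.8 and 49.0 in the 69 normal and 127 fibrosis cells without them and 256 and 241 in endothelial-like cells).

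Over all cells kept, Tgfb2, Tgfb3, Ltbp1, Ltbp2 and Ltbp3 had ratios of 1.96 or more and Ltbp4 a ratio of 0.582. Ltbp2 went furthest, from 22 normal UMIs to 2531 fibrosis UMIs, or 0.00533 to 0.494 per 10000 (ratio 92.7, 61.1–148). Tgfb3 went from 259 to 848 UMIs (ratio 2.64, 2.29–3.05), Ltbp3 from 601 to 1944 (2.61), Ltbp1 from 404 to 1032 (2.06) and Tgfb2 from 761 to 1850 (1.96, 1.80–2.13). Ltbp4 went from 16496 to 11901 UMIs, or 3.99 to 2.32 per 10000 (0.568–0.595). The other ratios were 1.80 for Tgfbr1, 1.20 for Tgfb1, 1.20 for Tgfbr3 and 0.871 for Tgfbr2. These sums mix the cell types a library holds, so the genes were followed within classes.

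**Figure D1:**
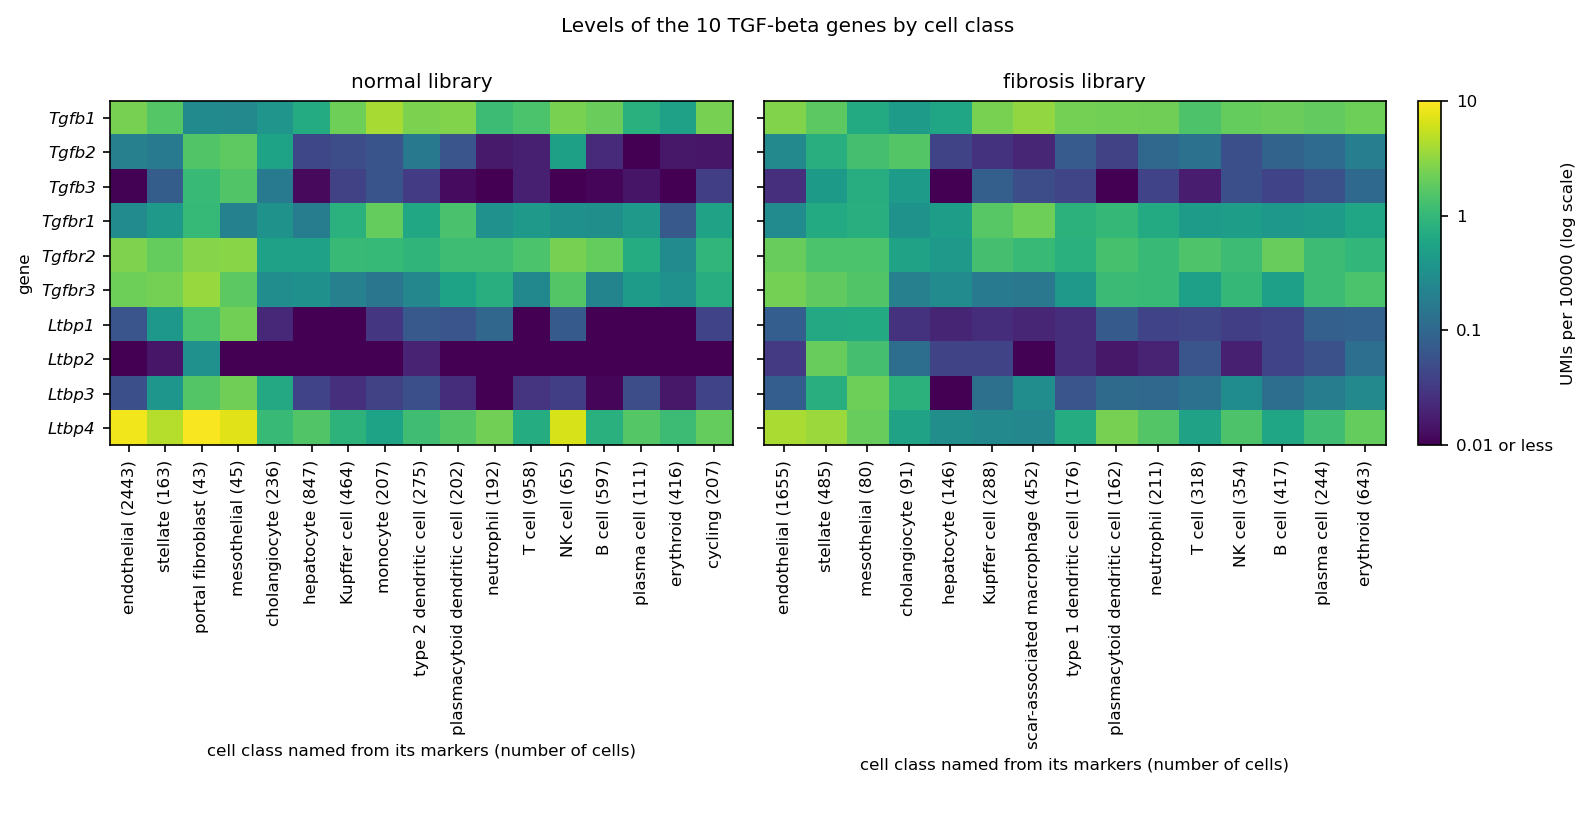
Level of each of the 10 genes (UMIs per 10000 UMIs of the class, log colour scale from 0.01 or less to 10) in every named class of the normal and the fibrosis library, with the number of cells of each class. Tgfb2, Tgfb3 and Ltbp3 are highest in mesothelial-like, portal-fibroblast-like and cholangiocyte-like cells, Ltbp1 in mesothelial-like, portal-fibroblast-like and stellate-like cells, and Ltbp2 has at most 5 UMIs in any normal class but the portal-fibroblast-like one.

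Counts of members called are given beside the share of all tested genes that passed the same rule, which is the background against which they are read. In endothelial-like cells 3 of 10 tested members were called, where 16.4% of genes were. Within them, 0 of 5 were called in portal-vessel-like cells (12.8% of genes), 1 of 8 in central-vein-like cells (12.3%), 2 of 7 in zone 1 sinusoidal-like cells (14.1%) and 1 of 6 in zone 2/3 sinusoidal-like cells (10.6%). In the mesenchymal classes 4 of 10 were called in stellate-like cells (14.4%) and 7 of 10 in mesothelial-like cells (21.3%). Among the named sub-clusters 3 of 10 were called in stellate (11.5%), 5 of 10 in portal fibroblast (17.6%) and 6 of 10 in mesothelial ones (17.6%). In the stellate sub-clusters without endothelial markers 6 of 10 were called (18.2%), but in the stellate-like class less the sub-clusters said to carry those markers, which keeps the unnamed cells of both libraries and the portal-fibroblast-named ones, 4 of 10 (21.6%). The mesenchymal shares were above the background of their comparison, with 10 genes behind each. Fewer were called in the stellate, portal fibroblast and mesothelial sub-clusters after thinning, which leaves fewer genes that can be called, as given at the end.

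Cholangiocyte-like cells had 3 of 9 members called (10% of genes) and Kupffer-like cells 3 of 8 (12.7%). The share was closer to the background in T-cell-like (2 of 7, 16.6%), B-cell-like (1 of 5, 20%), plasmacytoid-dendritic-like (1 of 5, 16.6%) and neutrophil-like cells (1 of 5, 20.3%). Hepatocyte-like cells had 2 of 5 called (21.1%), plasma-cell-like cells 3 of 6 (38.8%), NK-like cells 4 of 7 (16.8%) and erythroid-like cells 6 of 7 (84.4%). The last 4 classes are given by counts mainly, because their content differed between the libraries. In erythroid-like cells the median ratio of all genes was 3.76, the endothelial marker sum went from 36.3 to 123 per 10000 and the median UMIs per cell from 3285.5 to 1016. In NK-like cells the normal class of 65 cells had an endothelial marker sum of 185, against 86.2 in the fibrosis class, in plasma-cell-like cells the sum went from 48.7 to 102, and in hepatocyte-like cells from 46.8 to 23.7. The part of this in their ratios was not tested.

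**Figure D2:**
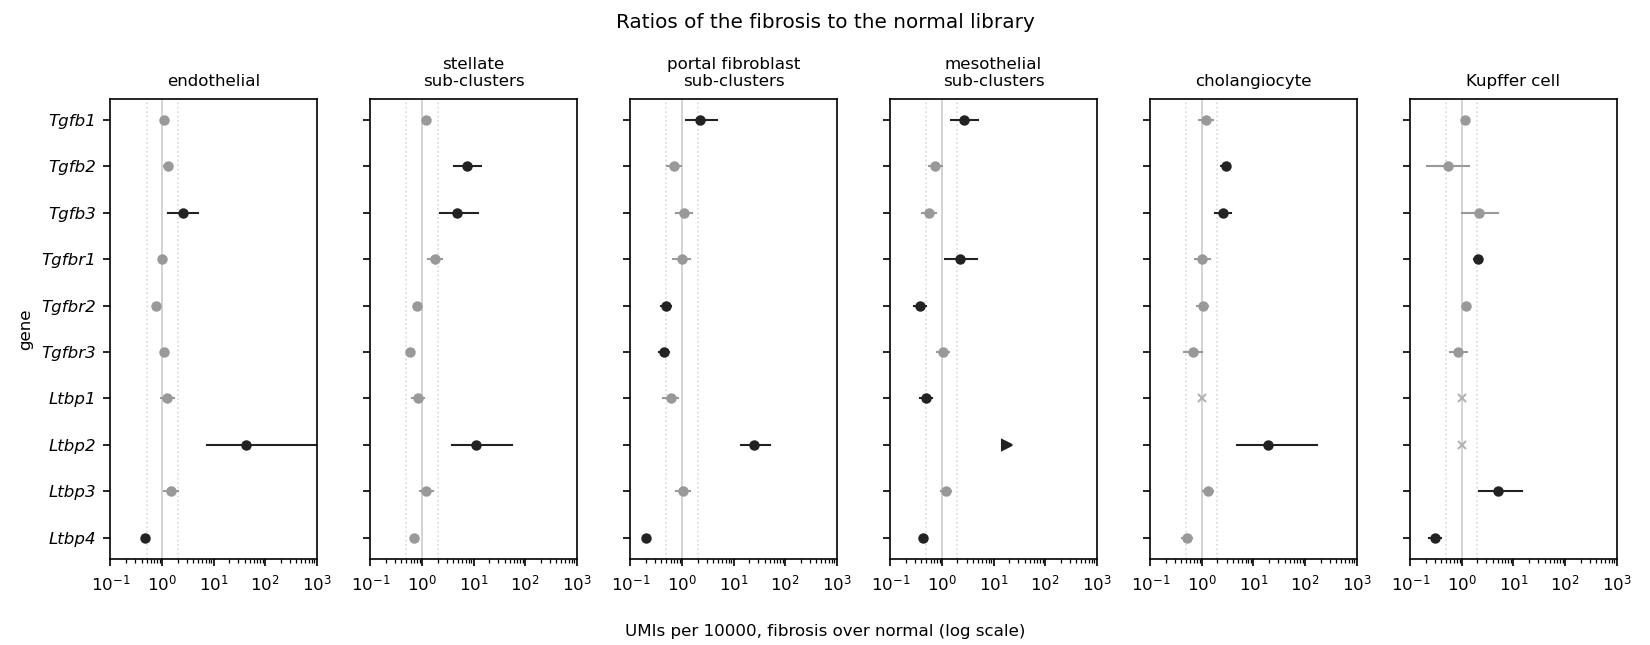
Ratio of the fibrosis over the normal level (log axis) of each gene in endothelial-like, cholangiocyte-like and Kupffer-like cells and in 3 groups of mesenchymal sub-clusters, with 95% counting intervals (lines, ending at the axis limit of 1000). Black marks called genes, grey those not called, the triangle a ratio with 0 normal UMIs set at 3 and a cross a gene with under 20 UMIs. Dotted lines are at 0.5 and 2. Ltbp2 stands to the right in 5 of the 6 panels, and Ltbp4 is left of 1 in all 6.

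Tgfb1, the ligand made by most cell types, was highest in cells of the myeloid lineage in both libraries. In the normal library monocyte-like cells led with 4.04 UMIs per 10000 (3.70–4.40), apart from the next class. Plasmacytoid-dendritic-like (2.72), type 2 dendritic-like (2.54), NK-like (2.52), endothelial-like (2.43), cycling (2.41) and Kupffer-like cells (2.20) followed in a chain of overlapping intervals. Portal-fibroblast-like (0.267, 9 UMIs) and mesothelial-like cells (0.261, 15 UMIs) were lowest. In the fibrosis library scar-associated-macrophage-like cells, a class not named in the normal library (though 21 to 235 normal cells took this name under 4 other settings), led with 3.29 (3.15–3.43), followed by endothelial-like (2.69) and Kupffer-like cells (2.51). Mesothelial-like (0.687), hepatocyte-like (0.589) and cholangiocyte-like cells (0.444) were lowest there.

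Between the libraries Tgfb1 differed little in the classes that hold most of it, with ratios of 1.11 (1.05–1.16) in endothelial-like, 1.14 in Kupffer-like and 1.08 in stellate-like cells. Among endothelial sub-classes it was highest in zone 2/3 sinusoidal-like cells (3.13 normal, 3.03 fibrosis) and lowest in portal-vessel-like cells (1.38, 1.86). Central-vein-like cells (2.60, 2.27) were above zone 1 sinusoidal-like cells (1.91, 2.59) in the normal library and below them in the fibrosis library, and zone 1 had a ratio of 1.36 (1.23–1.51). It was called higher in some mesenchymal cells. In mesothelial sub-clusters it went from 15 to 60 UMIs, or 0.261 to 0.686 per 10000 (2.63, 1.48–4.99), and in portal fibroblast sub-clusters from 10 to 132 UMIs, or 0.296 to 0.657 (2.22, 1.17–4.74). The part of free RNA in these levels was not tested, and most other classes had higher Tgfb1 levels. In all stellate sub-clusters it went from 1.84 to 2.24 (1.22), but in those without endothelial markers from 39 to 406 UMIs, or 0.870 to 1.87 (2.15, 1.54–3.06). With the unnamed and portal-fibroblast-named cells of the class kept in (106 normal and 353 fibrosis cells), Tgfb1 went from 102 to 1072 UMIs (1.44, 1.17–1.78), which was not called, but of the 102 normal UMIs 40 were in the immunoglobulin-led and 22 in the Mmrn1-led cells. The endothelial-like level was above that of these stellate cells in both libraries.

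Tgfb2, a ligand best known from epithelial and mesothelial cells and from heart and eye development, was restricted to fewer classes. Normal mesothelial-like (1.81, 1.48–2.19) and portal-fibroblast-like cells (1.51) overlapped at the top, cholangiocyte-like (0.548, 0.469–0.636) and NK-like cells (0.501) came next, and endothelial-like (0.20), stellate-like (0.177) and type 2 dendritic-like cells (0.165) followed. The other classes were at 0.0617 or less. Fibrosis cholangiocyte-like cells (1.59, 1.41–1.78) overlapped mesothelial-like cells (1.32) at the top, and stellate-like cells (0.773, 0.722–0.827) stood apart as the next class.

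In cholangiocyte-like cells, the epithelium of the bile ducts, Tgfb2 went from 172 to 286 UMIs and was called higher (2.90, 2.39–3.52). A Tgfb2 UMI was found in 36.4% of normal and 59.3% of fibrosis cholangiocyte-like cells, and in 3.39% and 16.5% after each cell was thinned to 1000 UMIs. In stellate sub-clusters it went from 13 to 378 UMIs, or 0.0923 to 0.677 per 10000 (7.33, 4.24–13.9), and the share of cells with a UMI from 7.94% to 46.7% (thinned, 0.794% to 8.95%, with 2 fibrosis cells too shallow). The thinned share was 0.209% and 1.57% in T-cell-like and 0.336% and 0.966% in B-cell-like cells of the normal and fibrosis library, so the fibrosis stellate level was above the free-RNA reference. Without endothelial markers the stellate ratio was 5.07 (5 to 123 UMIs), with the unnamed and portal-fibroblast-named cells kept in 2.96 (27 to 585 UMIs, 2.01–4.53), and over the whole stellate-like class, with its portal fibroblast and unnamed cells, 4.37 (35 to 840 UMIs, 3.12–6.32). Portal fibroblast (1.60 to 1.13, ratio 0.707) and mesothelial sub-clusters (1.81 to 1.35, 0.746), where the gene was already high, were not called.

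Among named endothelial sub-classes Tgfb2 was highest in the central-vein-like one. Central-vein-like cells had 0.855 per 10000 in the normal (108 UMIs) and 1.47 in the fibrosis library (296 UMIs), a ratio of 1.72 (1.38–2.17), while the other named sub-classes had 0.0793 or less. An unnamed normal sub-cluster of 82 cells, which shared the leading genes Nts and Fmo2 with the fibrosis central-vein-like cells, was higher, with 145 UMIs or 2.59 per 10000 (2.18–3.04). With these cells added the normal level was 1.39 and the ratio 1.06 (0.895–1.26). Zone 1 sinusoidal-like cells were called higher from 1 to 22 UMIs (16.8, 2.72–694), but their fibrosis level of 0.0522 was below that of T-cell-like (0.131) and B-cell-like cells (0.0901). The T-cell-like class itself was called higher (7 to 15 UMIs, 7.16, 2.75–20.7).

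Tgfb3, the ligand linked to palate fusion and to fibroblasts, was mainly mesenchymal. Normal mesothelial-like (1.53, 1.23–1.88) and portal-fibroblast-like cells (1.07) led, cholangiocyte-like (0.178) and stellate-like cells (0.0758) were far lower and the rest were at 0.0604 or less. Fibrosis mesothelial-like cells (0.738) stood apart from cholangiocyte-like (0.461) and stellate-like cells (0.432), and the rest were at 0.106 or less. Of the fibrosis sub-clusters, a portal-fibroblast-named one of 62 cells was highest with 1.65 (1.43–1.91), beside 1.13 in the normal portal fibroblast sub-cluster.

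In stellate sub-clusters Tgfb3 went from 7 to 133 UMIs, or 0.0497 to 0.238 per 10000 (4.79, 2.26–12.2), and in those without endothelial markers from 2 to 40 UMIs (4.12, 1.07–35.2). The class-wide stellate ratio of 5.69 (15 to 469 UMIs, 3.42–10.3) includes the portal-fibroblast-named cells just described. Cholangiocyte-like cells were called higher, from 56 to 83 UMIs (2.58, 1.82–3.69). The portal fibroblast ratio was 1.08 (1.13 to 1.21). The mesothelial-like class was called lower (88 to 129 UMIs, 0.483), but its fibrosis cells included portal-fibroblast-named ones, and the mesothelial sub-clusters alone had 0.568 (88 to 76 UMIs, 0.412–0.781), which was not called. In endothelial-like cells the call (14 to 36 UMIs, 2.51, 1.32–5.04) concerned a fibrosis level of 0.0262, between the T-cell-like (0.0174) and B-cell-like (0.0400) ones.

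Tgfbr1, the signalling kinase ALK5, was highest in myeloid cells, as Tgfb1 was. In the normal library monocyte-like cells had 1.95 (1.72–2.20), apart from plasmacytoid-dendritic-like (1.37), portal-fibroblast-like (1.01), Kupffer-like (0.822) and type 2 dendritic-like cells (0.616). In the fibrosis library scar-associated-macrophage-like (2.16, 2.05–2.27) and Kupffer-like cells (1.65, 1.53–1.79) each stood apart from the classes below, among them plasmacytoid-dendritic-like (0.988), type 1 dendritic-like (0.852), mesothelial-like (0.767) and stellate-like cells (0.678). Endothelial-like cells were low in both libraries at 0.278 and 0.281, with 374 and 387 UMIs and a ratio of 1.01 (0.875–1.17).

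In Kupffer-like cells, the resident macrophages of the liver, Tgfbr1 went from 194 to 609 UMIs and passed the limit narrowly (2.01, 1.71–2.38). UMIs per cell of that class were 2.51 times higher in the fibrosis library, and Tgfbr1 UMIs per cell 5.06 times. In stellate sub-clusters it went from 0.355 to 0.633 (1.78, 1.32–2.45), which was not called, and in those without endothelial markers from 15 to 239 UMIs, or 0.335 to 1.10 (3.29, 1.95–5.96), which was. With the unnamed and portal-fibroblast-named cells kept in it was 1.85, not called. Mesothelial sub-clusters were called higher, from 12 to 41 UMIs (2.25, 1.16–4.70). Portal fibroblast sub-clusters had 1.01 and 0.986 per 10000 (0.980). Neutrophil-like cells (20 to 34 UMIs, 2.08) and hepatocyte-like cells (45 to 46 UMIs, 2.63) were called higher on few UMIs.

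Tgfbr2, the receptor that binds the ligand first, was spread over mesenchymal, endothelial and lymphoid cells. Normal mesothelial-like (2.95), portal-fibroblast-like (2.85), endothelial-like (2.63, 2.54–2.71), NK-like (2.40), B-cell-like (1.97) and stellate-like cells (1.94) formed a chain of overlapping intervals, and T-cell-like cells followed at 1.41. Among fibrosis classes B-cell-like (2.03) and endothelial-like cells (1.99, 1.91–2.06) were apart from T-cell-like (1.48), mesothelial-like (1.42), stellate-like (1.40) and plasmacytoid-dendritic-like cells (1.34). B-cell-like and T-cell-like levels were thus about alike in both libraries, while the mesenchymal and endothelial ones were lower in the fibrosis library.

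Mesothelial sub-clusters were called lower, from 170 to 98 UMIs, or 2.95 to 1.12 per 10000 (0.379, 0.293–0.489), and UMIs per cell were lower too (0.540). Portal fibroblast sub-clusters were called lower from 2.81 to 1.38 (95 to 277 UMIs, 0.490, 0.387–0.626), but UMIs of the gene per cell were 1.36 times higher, since these cells held 2.78 times as many UMIs in all. Endothelial-like cells had 0.757 (0.719–0.796), with 1.14 per cell. Within them, portal-vessel-like cells went from 4.29 to 2.63 (0.614), zone 1 sinusoidal-like from 2.96 to 1.85 (0.625) and zone 2/3 sinusoidal-like from 2.67 to 1.82 (0.681), while central-vein-like cells had 3.30 and 3.27 (0.989). None of these was called. In stellate sub-clusters the ratio was 0.792, and 1.04 without endothelial markers. The highest level of any mesenchymal sub-cluster, 10.8 (8.87–13.1), was in the 14 unnamed normal cells led by Mmrn1 and Ccl21a.

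Tgfbr3 encodes betaglycan, a co-receptor with no kinase that presents TGF-β2 to the type II receptor. In the normal library portal-fibroblast-like cells stood apart with 3.47 (2.87–4.16), followed by stellate-like (2.36), endothelial-like (2.20), mesothelial-like (1.77) and NK-like cells (1.59), with 0.757 or less in the rest. In the fibrosis library endothelial-like (2.38) and stellate-like cells (1.83) each stood apart, ahead of mesothelial-like (1.53) and erythroid-like cells (1.40). Its level was low in Kupffer-like cells (0.203 normal, 0.174 fibrosis), normal monocyte-like cells (0.151) and fibrosis scar-associated-macrophage-like cells (0.159).

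The gene was lower per 10000 in fibroblastic cells of the fibrosis library. Portal fibroblast sub-clusters went from 114 to 297 UMIs, or 3.38 to 1.48 (0.438, 0.352–0.549), and were called lower, with 1.22 times as many UMIs per cell. Stellate sub-clusters without endothelial markers went from 182 to 322 UMIs, or 4.06 to 1.48 (0.365, 0.303–0.440), also called lower, with 0.961 per cell. With the unnamed and portal-fibroblast-named cells kept in, the ratio was 0.865 (0.745–1.01), and 0.775 over the whole class, neither called. The normal level then was 1.95, and the 23 immunoglobulin-led cells in it had 2 Tgfbr3 UMIs. All stellate sub-clusters went from 3.20 to 1.88 (0.588, 0.526–0.658), not called. Mesothelial sub-clusters (1.04) and endothelial-like cells (1.08) differed little. The endothelial sub-classes also differed little, with 2.65 and 2.35 in zone 2/3, 2.41 and 2.79 in zone 1, 1.96 and 1.90 in central-vein-like and 1.55 and 1.74 in portal-vessel-like cells of the normal and fibrosis library. Calls of higher Tgfbr3 in B-cell-like (40 to 49 UMIs, 2.18) and plasmacytoid-dendritic-like cells (88 to 144 UMIs, 2.06) went with higher endothelial marker sums, from 25.1 to 35.4 and from 54.6 to 105 per 10000, whose part in the result was not tested.

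**Figure D3:**
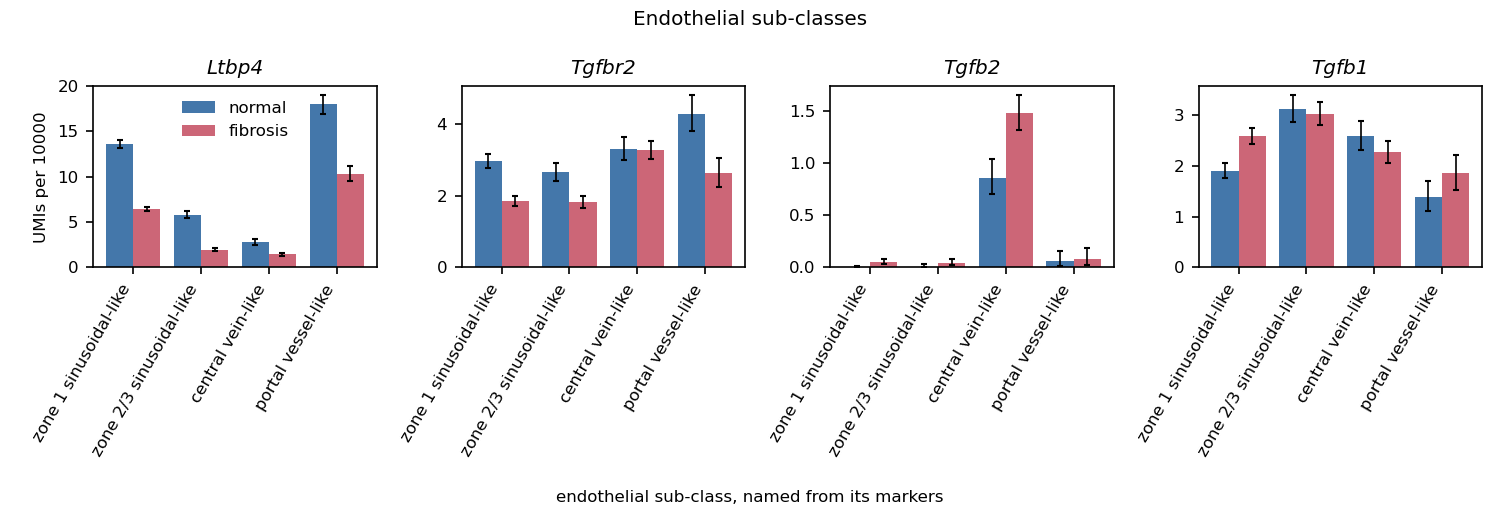
Level (UMIs per 10000) of Ltbp4, Tgfbr2, Tgfb2 and Tgfb1 in the 4 endothelial sub-classes of the normal (blue) and fibrosis (red) library, 1 library each, with exact Poisson 95% intervals for counting error. Ltbp4 is lower in the fibrosis library in all 4 sub-classes, and Tgfb2 reaches 0.855 and 1.47 in central-vein-like cells against 0.0793 or less in the other 3.

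Ltbp4, which binds latent TGF-β1 and is needed for elastic fibre assembly, was mainly endothelial. Endothelial-like cells held 70.4% of its normal and 47.6% of its fibrosis UMIs, while they held 32.6% and 26.9% of all UMIs. In the normal library portal-fibroblast-like (9.47, 8.46–10.6) and endothelial-like cells (8.63, 8.48–8.79) overlapped at the top, mesothelial-like (7.40) and NK-like cells (6.53) came next and stellate-like cells (4.64) stood apart below. In the fibrosis library endothelial-like (4.12, 4.01–4.23) and stellate-like cells (3.53) each stood apart, and scar-associated-macrophage-like cells had 0.242.

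Ltbp4 was called lower in endothelial-like cells, from 11611 to 5667 UMIs (0.477, 0.462–0.493), with a ratio per cell of 0.720. The order of the 4 named sub-classes, with no overlap between neighbours, was the same in both libraries, but unnamed sub-clusters held 1454 of the 2443 normal and 587 of the 1655 fibrosis endothelial-like cells, and 4736 of the 11611 normal UMIs. Portal-vessel-like cells were highest with 18 (17.0–19.1) and 10.3 (9.56–11.2), then zone 1 sinusoidal-like with 13.6 and 6.47, zone 2/3 sinusoidal-like with 5.80 and 1.93 and central-vein-like with 2.80 and 1.46. The ratio was 0.334 (0.298–0.373, 0.350 per cell) in zone 2/3 and 0.476 (0.453–0.499, 0.632 per cell) in zone 1, both called lower. In portal-vessel-like (0.575) and central-vein-like cells (0.522) it was not called. An Ltbp4 UMI was found in 100% of normal and 82.4% of fibrosis portal-vessel-like cells (thinned to 1000 UMIs, 85.4% and 52.9%) and in 99.2% and 94.5% of zone 1 sinusoidal-like cells (thinned, 71.9% and 44.5%). In T-cell-like cells, the free-RNA reference, the thinned share was 6.90% and 3.14%. With the unnamed 82 cells the normal central-vein-like level was 4.23 and the ratio 0.346 (0.301–0.396), past the limit of a call.

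The level was also lower in portal fibroblast and mesothelial cells. Portal fibroblast sub-clusters went from 9.42 to 1.89 per 10000 (318 to 379 UMIs, 0.20, 0.172–0.233, 0.557 per cell) and mesothelial ones from 7.40 to 3.18 (426 to 278 UMIs, 0.429, 0.368–0.50, 0.612 per cell), both called lower. Stellate sub-clusters went from 5.40 to 3.79 (0.703, and 0.679 without endothelial markers) and were not called, and per cell their ratios were above 1 (1.36 and 1.79). With the unnamed and portal-fibroblast-named cells kept in, the ratio was 0.913. Kupffer-like cells were called lower (203 to 96 UMIs, 0.303), where the levels of 0.860 and 0.261 stood beside 0.723 and 0.540 in T-cell-like and 0.792 and 0.581 in B-cell-like cells. The hepatocyte-like (379 to 29 UMIs, 0.197) and NK-like classes (365 to 159 UMIs, 0.220) were called lower along with their endothelial marker sums. Cholangiocyte-like cells had 0.515, which was not called.

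Ltbp2 went the other way, from near absence. In the normal library its 22 UMIs were 11 in portal-fibroblast-like cells (0.327, 0.163–0.584, apart from the next class), 5 in type 2 dendritic-like, 3 in stellate-like, 2 in cholangiocyte-like and 1 in endothelial-like cells, and 12 of the 17 classes had none. In the fibrosis library stellate-like (1.99, 1.91–2.08) and mesothelial-like cells (1.30) each stood apart, and the next classes, erythroid-like (0.126) and cholangiocyte-like (0.122), were far lower. T-cell-like (0.0610), B-cell-like (0.0400) and endothelial-like cells (0.0320) were low.

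Most of the Ltbp2 UMIs came from few cells. A portal-fibroblast-named sub-cluster of 62 fibrosis cells, led by the matrix genes Mfap4, Col6a6 and Thbs4 with Dpep1, Fndc5 and Lgi2, held 1545 of the UMIs, or 61.0% of those in the library, at 13.3 per 10000 (12.7–14.0). Of its cells 61 of 62 (98.4%) had an Ltbp2 UMI, against 2.20% of T-cell-like and 0.959% of B-cell-like cells, with median depths of 16728.5, 3024.5 and 2204 UMIs. Thinned to 1000 UMIs the shares were 67.7% (54.7–79.1), 1.26% and 0.966%. The signal was spread over the sub-cluster, with 15.5% of its Ltbp2 UMIs in the 3 cells that held most.

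Other fibrosis mesenchymal cells held less. The second portal-fibroblast-named sub-cluster (30 cells led by Cxcl5) had 1.30 per 10000, but 64.5% of its 110 UMIs were in 3 cells, and 49 unnamed cycling cells had 2.38, with 59.7% of 303 UMIs in 3 cells. An unnamed sub-cluster of 77 cells led by Ogn, Vegfd and Epha3 had 1.62, the 48 mesothelial-named cells had 0.972, and the stellate-named sub-clusters between 0.0422 and 0.40. All mesenchymal sub-clusters together held 94.4% of the fibrosis UMIs of Ltbp2 and 63.6% of the 22 normal ones.

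Ltbp2 was called higher in each mesenchymal comparison. Portal fibroblast sub-clusters, whose name is weaker in the fibrosis library, went from 11 to 1655 UMIs, or 0.326 to 8.24 per 10000 (25.3, 14.1–50.8). Mesothelial sub-clusters went from 0 to 85 UMIs, 18.6-fold higher with the normal count set at 3 (lower end of the exact interval 14.8). Stellate sub-clusters went from 3 to 133 UMIs (11.2, 3.74–54.9) and those without endothelial markers from 1 to 68 (14.0, 2.43–562), while the class-wide stellate ratios of 131 (3 to 2162 UMIs, 44.8–637) and, less the endothelial-marker sub-clusters, 286 (1 to 2097 UMIs, 51.3–11317) include 61 cells of the portal-fibroblast-named sub-cluster above. In endothelial-like cells (1 to 44 UMIs, 43.0, 7.33–1737) the fibrosis level was no higher than in lymphocytes, and in cholangiocyte-like cells (2 to 22 UMIs, 19.2, 4.71–168) all 22 fibrosis UMIs were in 3 cells.

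**Figure D4:**
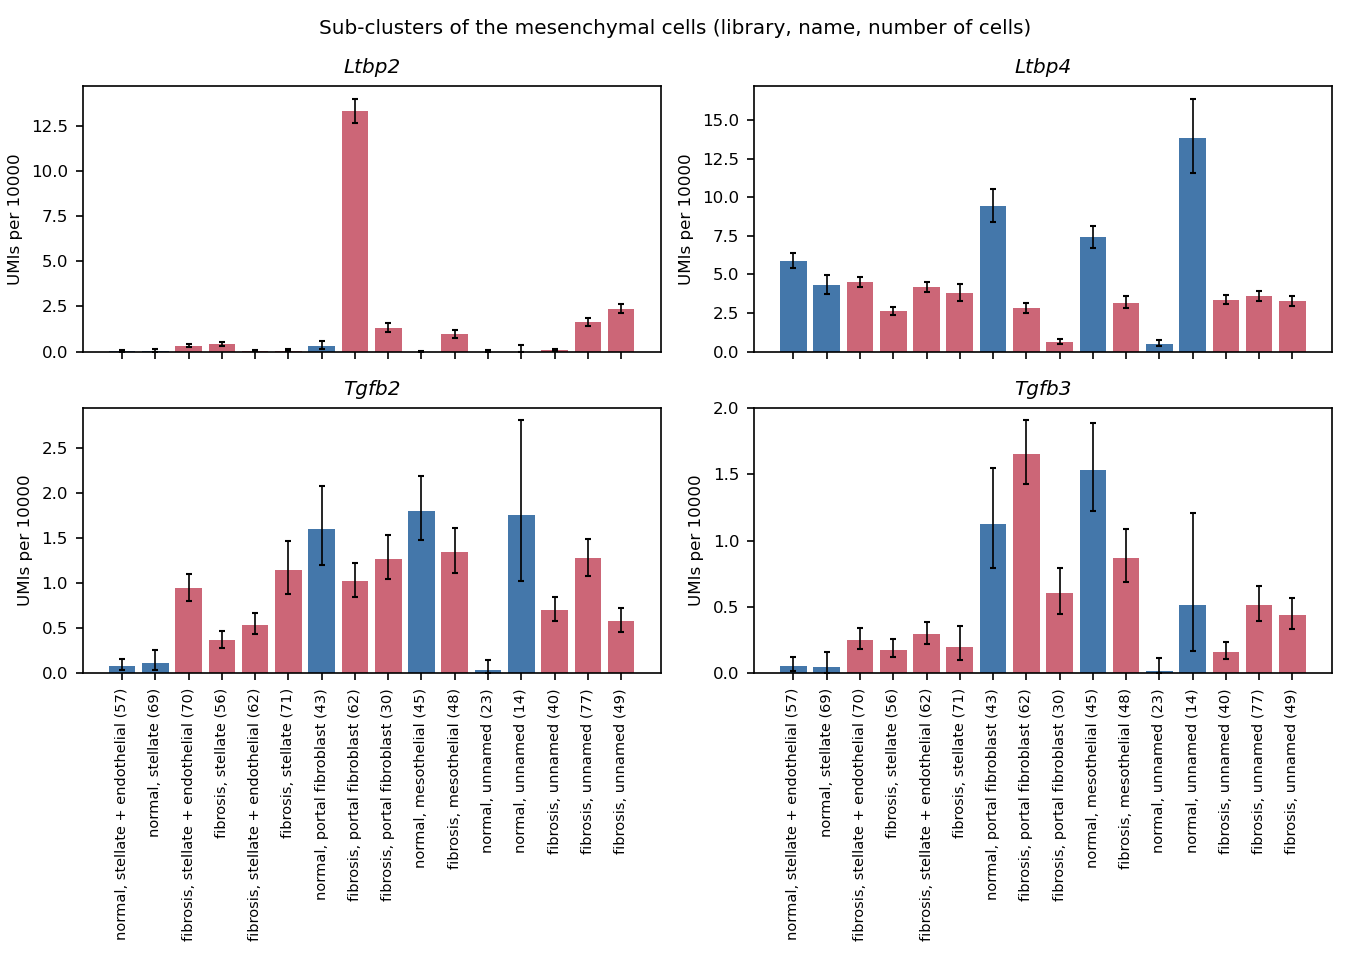
Level (UMIs per 10000, with exact Poisson 95% intervals for counting error) of Ltbp2, Ltbp4, Tgfb2 and Tgfb3 in every sub-cluster of the mesenchymal cells, normal in blue and fibrosis in red, with names and numbers of cells on the horizontal axis. Ltbp2 reaches 13.3 in 1 fibrosis sub-cluster of 62 cells and is at 2.38 or less in all others, while the portal-fibroblast-named and mesothelial-named sub-clusters are lower in Ltbp4 in the fibrosis library.

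Ltbp1, the first-described carrier of latent TGF-β, was mainly mesenchymal, and mesenchymal sub-clusters held 64.4% of its normal and 79.8% of its fibrosis UMIs. Endothelial-like cells held 84 of the 404 normal UMIs (20.8%), of which 73 were in the unnamed sub-cluster of 82 cells led by genes such as Nts and Fmo2, at 1.30 per 10000. Among normal classes mesothelial-like (2.31, 1.94–2.74), portal-fibroblast-like (1.43, 1.05–1.89) and stellate-like cells (0.399) each stood apart from the next, the rest had 0.0988 or less, and B-cell-like, hepatocyte-like and Kupffer-like cells had no UMI. Among fibrosis classes mesothelial-like (0.675) and stellate-like cells (0.650) overlapped above a rest of 0.0871 or less.

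Mesothelial sub-clusters were called lower in Ltbp1, from 133 to 101 UMIs, or 2.31 to 1.15 per 10000 (0.50, 0.382–0.652). Portal fibroblast (1.42 to 0.857, 0.603) and stellate sub-clusters (0.483 to 0.403, 0.835) were not called. Over the whole stellate-like class the direction was the other way (79 to 706 UMIs, 1.63, 1.29–2.08, not called), as it was with the unnamed and portal-fibroblast-named cells kept in and the endothelial-marker sub-clusters left out (1.62). The 2 fibrosis portal-fibroblast-named sub-clusters differed, with 1.42 in the one of 62 cells and 0.0826 in the one of 30 cells. Central-vein-like cells were called higher, from 5 to 89 UMIs, or 0.0396 to 0.443 (11.2, 4.62–35.3), but this rests on which normal cells carry the name. With the 82 unnamed cells that shared Nts and Fmo2, the normal level was 0.428 (78 UMIs over 295 cells) and the ratio 1.04 (0.756–1.42).

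Ltbp3, the carrier most studied in bone and tooth, was highest in mesothelial-like cells of both libraries. In the normal library mesothelial-like (2.26) and portal-fibroblast-like cells (1.57) overlapped, cholangiocyte-like (0.640) and stellate-like cells (0.374) each stood apart below and the rest had 0.0536 or less. In the fibrosis library mesothelial-like cells stood apart with 2.18 (1.97–2.41), and cholangiocyte-like (0.838), stellate-like (0.768), scar-associated-macrophage-like (0.292) and NK-like cells (0.290) followed. The ratio was 1.20 in mesothelial sub-clusters, 1.03 in portal fibroblast ones and 1.31 in cholangiocyte-like cells.

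The stellate-like class was called higher in Ltbp3 (74 to 834 UMIs, 2.05, 1.62–2.64), but the named stellate sub-clusters were not (1.21, 0.924–1.61), and those without endothelial markers had 0.983. With the unnamed and portal-fibroblast-named cells kept in, it was 2.17 (1.60–3.03) and called higher. The unnamed fibrosis sub-clusters, too, had 16 stellate markers raised. Between the class and its stellate-named sub-clusters the normal level went from 0.374 to 0.462 and the fibrosis level from 0.768 to 0.559. In Kupffer-like cells a call from 6 to 47 UMIs (5.03) concerned a fibrosis level of 0.128, beside 0.131 in T-cell-like and 0.120 in B-cell-like cells. T-cell-like cells themselves were called higher (11 to 15 UMIs, 4.55), and NK-like cells from 2 to 32 UMIs (8.10, 2.07–69.7).

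The calls in the classes whose content differed are given side by side. Erythroid-like cells were called higher in Tgfb1 (4.23), Tgfb2 (12.5), Tgfbr1 (8.50), Tgfbr2 (3.52), Tgfbr3 (4.23) and Ltbp3 (16.9), while Ltbp4 had 1.72. Plasma-cell-like cells were called higher in Tgfb1 (2.35), Tgfbr3 (2.56) and Ltbp3 (3.50). NK-like cells were called lower in Tgfb2 (0.108), Tgfbr2 (0.476) and Ltbp4. Against the median ratio over all genes, 3.76 in erythroid-like and 1.62 in plasma-cell-like cells, several of these are near the bulk of genes.

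Another 46 genes of the pathway were listed by role: 16 for latency and activation, 5 co-receptors and receptor modifiers, 4 extracellular binders, 10 transducers and brakes and 11 targets. In stellate sub-clusters 11 were called higher, 0 lower, 31 were not called and 4 had too few UMIs, where 11.5% of all genes were called, with a median ratio of 1.30 against 1.04 over all genes. By role, 7 of 11 targets and 4 of 14 tested latency and activation genes were higher, and 0 of 10 transducers and brakes, the SMAD proteins and their partners, passed in either direction. In portal fibroblast sub-clusters 12 were higher and 6 lower (17.6% of genes called, median 1.36 against 1.16), in mesothelial ones 12 and 1 (17.6%, 1.25 against 1.09), in cholangiocyte-like cells 11 and 0 (10%, 1.42 against 1.05), in endothelial-like cells 13 and 2 (16.4%, 1.18 against 1.03) and in Kupffer-like cells 13 and 2 (12.7%, 1.24 against 1.02). T-cell-like (18 higher, 1 lower, 16.6%, median 2.0 against 1.15) and B-cell-like cells (19 and 0, 20%, 2.42 against 1.18), the free-RNA reference, had as many or more called. The transducers and brakes had 0 of 10 called in endothelial-like, cholangiocyte-like and Kupffer-like cells as well.

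In stellate sub-clusters the highest ratios were of Col1a1, fibrillar collagen (170 to 10789 UMIs, 16.0, 13.8–18.7), the collagen cross-linker Lox (6 to 237 UMIs, 9.96, 4.51–27.4) and the fibrillin gene Fbn2 (0 to 69 UMIs, 5.80-fold higher with 0 set at 3 counts). Among the called genes with the lowest ratios were Nrros, which anchors latent TGF-β on macrophages (2.01), and the integrin subunit Itgb5 (2.28). In portal fibroblast sub-clusters Acta2, smooth muscle actin (18 to 1995 UMIs, 18.6, 11.8–31.5), and Tagln, another smooth muscle protein (21 to 1738 UMIs, 13.9), were among the highest. Lower there were the matrix genes Aspn (41 to 2 UMIs, 0.00820, 0.000961–0.0316), Ctgf (67 to 78 UMIs, 0.196) and Tgfbi (237 to 290 UMIs, 0.206). The study used Aspn as a marker of portal fibroblasts, so this marker goes against the name of the fibrosis sub-clusters. The inhibitory SMAD genes, which TGF-β and BMP signals induce, were higher in portal fibroblast sub-clusters, Smad6 from 10 to 263 UMIs (4.42) and Smad7 from 19 to 474 UMIs (4.20), and Smad7 in mesothelial ones (2.16). These SMAD genes were chosen after their values were seen.

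In mesothelial sub-clusters Tgfbi (3 to 75 UMIs, 16.4, 5.42–81.5) and thrombospondin Thbs1 (9 to 146 UMIs, 10.7) were among the highest, and fibromodulin Fmod was lower (413 to 81 UMIs, 0.129). Tgfbi was thus called in opposite directions in mesothelial and portal fibroblast sub-clusters, a difference that was not tested. In endothelial-like cells Col1a1 (23 to 1598 UMIs, 67.9), Acta2 (10 to 266 UMIs, 26.0) and Tagln (14 to 254 UMIs, 17.7) had the highest ratios, but each fibrosis level (1.16, 0.193 and 0.185 per 10000) was below that of B-cell-like cells (2.32, 0.420 and 0.450) and of T-cell-like cells (2.05, 0.375 and 0.209). These lymphocytes were shallower (2396 and 3608 UMIs a cell, against 8314), so this does not show that endothelial-like cells lacked expression of these genes. The genes called lower there were Lox (121 to 56 UMIs, 0.452) and the decoy receptor Bambi (407 to 196 UMIs, 0.471).

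Cholangiocyte-like cells had the highest ratios for Col1a1 (2 to 558 UMIs, 486, 134–4025), Col3a1 (9 to 524 UMIs, 101) and Acta2 (0 to 73 UMIs, 42.4-fold higher with 0 set at 3 counts). Their fibrosis levels of Col1a1 (3.10) and Col3a1 (2.91) stood beside 2.32 and 1.68 in B-cell-like and 2.05 and 1.53 in T-cell-like cells. Their Acta2 level (0.405) lay between the T-cell-like (0.375) and B-cell-like (0.420) ones. In Kupffer-like cells Acta2 (1 to 71 UMIs, 45.5, 7.92–1824) and Col1a1 (8 to 369 UMIs, 29.6) were among the highest, with a Col1a1 level of 1.0 and an Acta2 level of 0.193, both below those of T-cell-like and B-cell-like cells. The TGF-β co-receptor endoglin, Eng (298 to 135 UMIs, 0.291), and Lrrc32, the GARP protein that tethers latent TGF-β to the cell surface (74 to 53 UMIs, 0.459, 1.15 per cell), were lower.

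The genes most like each member across 32 points, the classes of both libraries, were found by Pearson's r of log2(UMIs per 10000 + 0.1) among 5620 genes. The points share 2 libraries and their depths, so r is a description. Tgfb1 was closest to Nrros (0.914), Map3k8 (0.912) and Sh2b3 (0.909), Tgfb2 to Smo (0.927), Ehd2 (0.903) and Neo1 (0.901), and Tgfb3 to Wnt5a (0.961), Kirrel (0.937) and Ltbp3 (0.937). Tgfbr1 was closest to Ctsz (0.899), Npc2 (0.863) and Slc29a3 (0.857), Tgfbr2 to Tmod3 (0.859), Aida (0.807) and Nr3c1 (0.771), and Tgfbr3 to Nid1 (0.950), Hmcn1 (0.949) and Pla2r1 (0.944). Among the binding proteins, Ltbp1 was closest to Aebp1 (0.960), Ndn (0.960) and Gpx8 (0.958), Ltbp3 to Pkia (0.946), Tgfb3 (0.937) and P3h4 (0.928), and Ltbp4 to Slc43a3 (0.940), Zfp503 (0.911) and Tns2 (0.902). Ltbp2 was closest to Lgi2 (0.899), Mrc2 (0.855) and Ncam1 (0.852), and Lgi2 was also among the leading genes of the 62-cell sub-cluster. The pair of members in these lists was Tgfb3 and Ltbp3, both highest in mesothelial-like cells. Tgfbr2 had the lowest best likeness of the 10, with no gene above 0.859.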

How the data were processed

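Liver NPCs of 1 normal and 1 fibrosis mouse gave 1 scRNA-seq library per mouse. Reads were processed by the authors with Cell Ranger 3.0.1 against mm10 (names from the submitters' processing notes), and the deposited values are UMI counts per gene and cell, whole numbers without normalization; genes without a UMI are not listed. Whether strand was used in counting is not given in the sources used here. The 10 genes and all gene lists were chosen with earlier results of these data known.

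The study's filter was used, which keeps cells with under 10% mitochondrial UMIs and more than 200 genes. Each library was clustered separately on 2000 variable genes, 10 principal components, 20 neighbours and a Leiden resolution of 0.8, with the members and the 46 other pathway genes held out of the variable genes and marker lists. A cluster took the list with the most markers among its 10 leading genes, if at least 3 of that list's markers were raised 2 times. Ties went to the list with more raised markers. For endothelial sub-clusters a marker counted as raised when it was above the other endothelial-like cells by any amount. Some of them took their name on 1 leading marker. Endothelial and mesenchymal cells were clustered again. Naming rules were changed after the clusters, but not the members' levels, had been seen: zone lists were pooled with the endothelial list for the classes, mesenchymal sub-clusters were named by fold over the whole library, and sub-clusters with at least 50% of 18 endothelial markers raised 2 times over the other mesenchymal cells were said to carry them. Scrublet (expected doublet rate 0.06) called 3 normal and 0 fibrosis cells, and no cells were removed as doublets; the study's methods name a doublet exclusion of their own.

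Summed UMIs of a class were given per 10000 UMIs with exact Poisson intervals, ratios with exact conditional intervals and shares of cells with exact binomial intervals, each at 95% and covering counting error alone. A gene was tested in a class with at least 20 UMIs over both libraries and 30 cells in each. A count of 0 was set at the limit of 3 counts of the class, so a fold against it is not the lower end of an exact interval. Shares of cells were also taken after thinning each cell to 1000 UMIs. With 1 library per group there is no replicate and no p-value was computed. The genes named are all members, the called pathway genes with the 3 highest and 3 lowest ratios in each class described and the 3 genes most like each member (pseudocount 0.1); others are said to be chosen after their values were seen. Some results that this rule would name are not reported here. Depth was 44062632 normal and 53288463 fibrosis UMIs. The rule for a call was checked on simulated counts of endothelial-like cells before use. Alternatives changed the cell filter, clustering, doublet removal, thinning, scaling and UMI minimum, 1 at a time. Python 3.11.15 was used with scanpy 1.11.5, anndata 0.12.19, igraph 0.11.9, numpy 2.4.6, scipy 1.17.1, pandas 2.3.3 and matplotlib 3.10.9.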

Additional observations from a re-analysis of the deposited data

Results flagged for a closer look

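Some members were called in opposite directions in different classes, and the difference between the classes was not tested, with 1 library per condition. Tgfb3 had a ratio of 5.69 in stellate-like and 0.483 in mesothelial-like cells, where the fibrosis classes held portal-fibroblast-named cells in both. Tgfb2 had a ratio of 12.5 in erythroid-like and 0.108 in NK-like cells, and Tgfbr2 3.52 and 0.476 in the same classes. The endothelial marker sum went from 36.3 to 123 per 10000 in erythroid-like and from 185 to 86.2 in NK-like cells, in the direction of both genes, and its part in the result was not tested.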

How the results depend on the processing

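Over all alternatives, 1368 ratios stayed within the interval of the reported ratio, 399 lay outside it and 11 ratios of called genes reversed in direction. Whether a call was kept was not part of this count. Of the levels, 110 stayed and 44 moved by more than their interval, and 188 counts of members stayed within 1.5 times and 97 did not. The alternatives by named sub-clusters, by pooled central-vein-like cells and by the endothelial list alone were chosen after seeing the data. No paired analysis was possible because each group is 1 library and no test was made.

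The reversed ratios were Tgfbr2 in erythroid-like cells (0.887 at resolution 0.4, and 0.935 with ratios divided by the median of all genes), Ltbp3 in stellate-like cells (0.983 in named stellate sub-clusters without endothelial markers), and Ltbp1 in central-vein-like cells (0.961 with no filter on cells, 0.684 with 3000 variable genes and 0.635 without the 5% of cells scored most like doublets). Per cell, plasma-cell-like Tgfb1 (0.568), Tgfbr3 (0.619) and Ltbp3 (0.845) and portal fibroblast Tgfbr2 (1.36) and Tgfbr3 (1.22) reversed, by construction from the change in UMIs per cell.

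Counts of members called changed as follows. Kupffer-like cells (3 called) had 1 with no filter on cells, without the highest doublet scores or thinned, 6 per cell and 5 at a minimum of 5 UMIs. Endothelial-like cells (3) had 1 at a mitochondrial limit of 5%, thinned or at a minimum of 100 UMIs, and 5 with the endothelial list alone. Cholangiocyte-like cells (3) had 1 when thinned. Mesothelial-like cells (7) had 4 when both libraries were clustered together and 2 when thinned. Stellate sub-clusters (3) had 1 thinned and 6 per cell, portal fibroblast ones (5) 3 thinned, and mesothelial ones (6) 2 thinned and 3 per cell or at 100 UMIs. Of 40 member and class pairs called, 20 were when thinned and 25 at 100 UMIs. Thinning and the higher minimum leave fewer genes that can be called, and for the rest the cause was not tested.

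The class with the highest level was the reported one for fewer of the 10 members in the normal library at a mitochondrial limit of 5% (6), resolution 0.4 (2) or 3000 variable genes (5), and in the fibrosis library at a limit of 5% (5) or no filter (6). The reported class was not named for 3, 7, 5, 5 and 0 members of these. Under the other settings it was the reported one for 8 or 9 members in the normal library and for 7 to 10 in the fibrosis library, with 7 at resolution 1.5, with members among the variable genes, with 3000 variable genes and when thinned.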
